A study of Mus musculus with 6 samples.

Results

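The small leucine-rich proteoglycans are secreted matrix proteins, represented here by 10 genes, Dcn, Bgn, Lum, Fmod, Ogn, Prelp, Aspn, Kera, Epyc and Omd. Every probe of the array design that carried one of these names was taken, which gave 1 probe per gene, 10 of the 55681 probes on the array and 10 of the 36163 names they carry. The family was selected on measured values of the very comparison described here, so the members' differences are given as a description, without p values. In LSC GFP+ cells, Dcn and Fmod gave higher signals than in LSC GFP- cells. Lum and Kera gave lower signals, but Lum did so only narrowly against 1 LSC GFP- array. Kera was not above background on any LSC GFP+ array. Bgn had a lower mean but overlapped between the populations through 1 LSC GFP- array. Prelp, Aspn and Ogn overlapped too, and Epyc and Omd were not measurable above background.

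The arrays compared LSC GFP+ with LSC GFP- cells, 3 independent samples of each, and asked what sets the GFP+ cells apart within the basal compartment of the neonatal prostate. All cells came from the prostates of untreated male FVB/N mice, 6 days old, that carried the transgene Tg 11.5kb-GFP, in which an 11.5 kb stretch of the s-SHIP promoter drives green fluorescent protein. Both populations therefore carried the same transgene, and both were sorted from collagenase-digested tissue as lineage-negative (Ter119, CD31 and CD45), Sca-1+ and CD49f+, the combination abbreviated LSC, so that GFP alone parted them. The same promoter also labels a group of vascular smooth muscle cells in these mice, with brighter GFP than the epithelium, and whether tissue from several mice was pooled into a sample was not stated.

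As background, a small leucine-rich proteoglycan has a core of leucine-rich repeats that curves around collagen fibrils and sets their width and spacing, and many cores carry chondroitin, dermatan or keratan sulfate chains. Decorin (Dcn), biglycan (Bgn) and asporin (Aspn) form class I of the family, fibromodulin (Fmod), lumican (Lum), PRELP, keratocan (Kera) and osteomodulin (Omd) class II, and epiphycan (Epyc) and osteoglycin (Ogn) class III. Besides collagen they bind growth factors of the TGF-β group and cell surface receptors, and in most tissues fibroblasts and other mesenchymal cells are their main source.

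The probe sequences of Dcn and Bgn are shown because these close relatives, both of class I and both carriers of chondroitin or dermatan sulfate, lay on opposite sides of the comparison. The Dcn probe lies at chr10:96980233-96980292 and the Bgn probe at chrX:70738554-70738613, both in mm9 on the plus strand, and each is 60 bases long. Read from its first base, the Dcn probe gives 18 codons and then the stop codon in capitals.
Dcn: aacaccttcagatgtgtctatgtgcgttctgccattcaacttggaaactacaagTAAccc
Bgn: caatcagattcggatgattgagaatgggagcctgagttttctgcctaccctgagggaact
Among the 45 pairs of member probes, the longest run of identical bases that a pair had in common was between 4 and 9 bases.

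Upstream sequence is shown for Fmod, a class II gene with the higher signals in LSC GFP+ cells, and for Bgn, with the lower ones. The RefSeq promoter table of GRCm38.p6 held 8 of the 10 members, all but Dcn and Lum, and the windows here are the 250 bases before the annotated start, at chr1:134037004-134037253 for Fmod and chrX:73483351-73483600 for Bgn, both on the plus strand. The letters GGGCGG, searched on both strands with overlaps counted, are in capitals.
Fmod: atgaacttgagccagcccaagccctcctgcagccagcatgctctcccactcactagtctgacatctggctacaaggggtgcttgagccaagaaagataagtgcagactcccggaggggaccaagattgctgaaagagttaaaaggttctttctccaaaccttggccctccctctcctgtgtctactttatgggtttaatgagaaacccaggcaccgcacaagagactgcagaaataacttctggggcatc
Bgn: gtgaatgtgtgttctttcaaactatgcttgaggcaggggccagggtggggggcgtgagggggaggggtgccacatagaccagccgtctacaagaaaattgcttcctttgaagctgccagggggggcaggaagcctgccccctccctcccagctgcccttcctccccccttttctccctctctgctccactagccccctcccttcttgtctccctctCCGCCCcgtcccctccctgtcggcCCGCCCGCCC
GGGCGG was found 3 times in the Bgn window, all on the opposite strand as CCGCCC and within 34 bases of the start, and not in the Fmod window. It occurs in 32.7% of the 32851 promoter windows of that length. TATAAA, found in 12.4% of all windows, was in neither. GC content was 51.2% for Fmod and 64.4% for Bgn, beside a median of 52.4% over all windows.

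Signals below are log2 values of the scanner's processed signal, from which the 75th percentile of the array was subtracted, so that 0 is a probe at that percentile. Testing required a scanner mark of well above background on each of the 3 arrays in at least 1 population, a condition met by 37005 probes, 7 of them members. A probe could thus be tested through 1 population alone, which favours a lower value in the other. Between 36651 and 42123 probes were well above background on an array, and no spot was saturated. Of the sorting markers, Itga6, the gene of CD49f, differed by 0.25 (SE 0.22) and Ly6a, the gene of Sca-1, by -0.36 (SE 0.46), and both lay above background on all 6 arrays. Ptprc, which encodes CD45, also lay above background on all 6 arrays and differed by -0.05 (SE 0.18), while Pecam1, which encodes CD31, differed by -0.55 (SE 0.59). None of these markers passed an unadjusted p of 0.05 in limma (adjusted p from 0.975 to 0.996), and the probe of Inpp5d, the SHIP gene, was well above background on none of the 6 arrays. Of 12 basal epithelial markers tested, 7 rose and 0 fell at that unadjusted threshold, none after adjustment, with a median log2 difference of 0.61 and with Krt14 at 1.18 (SE 0.22, adjusted p = 0.135 in limma). Of 13 luminal markers 1 rose and 2 fell, and none fell with arrays scaled by their median or when LSC GFP- replicate 3 or LSC GFP+ replicate 1 or 2 was left out.

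**Figure D1:**
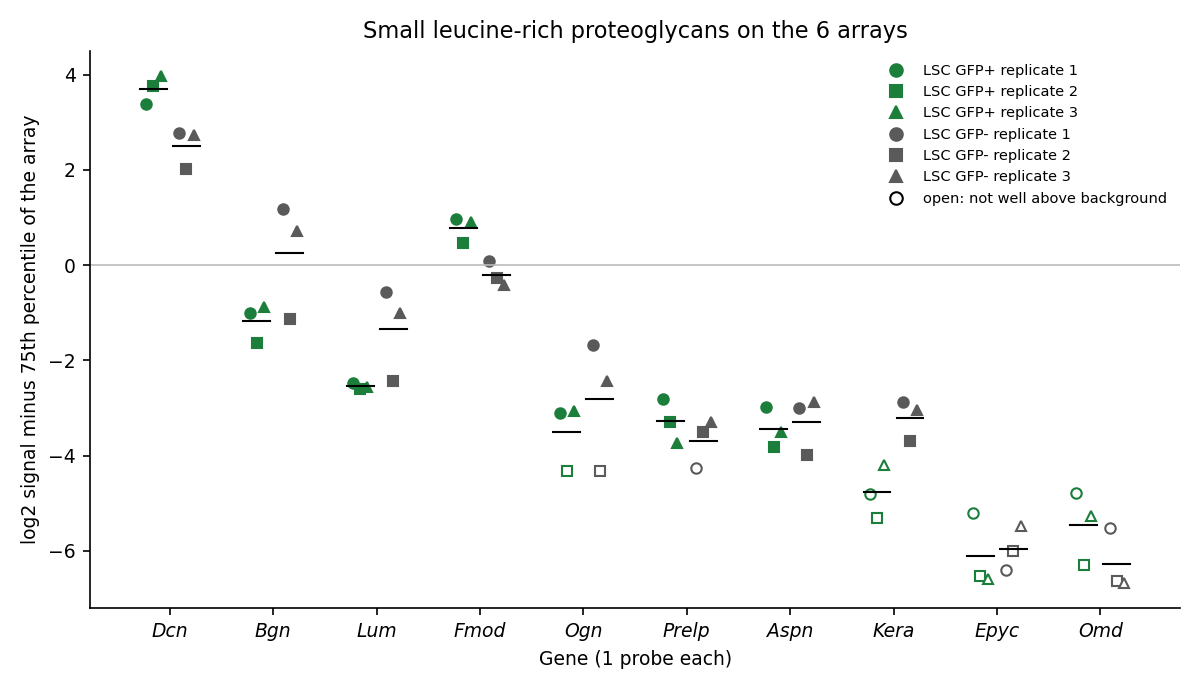
Log2 signal (minus the 75th percentile of the array) of each of the 10 member probes on the 6 arrays, with LSC GFP+ in green, LSC GFP- in grey, shapes for replicate numbers, short lines for means of 3, and open symbols for probes not well above background. The 3 LSC GFP+ arrays lie above the 3 LSC GFP- arrays for Dcn and Fmod and below them for Lum and Kera.

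Class I was divided. Dcn, which binds collagen I fibrils and TGF-β, measured 3.37, 3.76 and 3.97 in LSC GFP+ replicates 1, 2 and 3 and 2.77, 2.02 and 2.74 in LSC GFP- replicates 1, 2 and 3. The populations did not overlap. The means were 3.70 ± 0.30 and 2.51 ± 0.42 (SD, n = 3), a difference of 1.19 (SE 0.27) on the log2 scale, or 2.28-fold higher signal in LSC GFP+ cells. Within replicate numbers 1, 2 and 3 the difference was 0.61, 1.73 and 1.23. It stayed between 0.95 and 1.35 when each array was left out in turn.

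Bgn, a class I relative that also acts as a ligand of Toll-like receptors, ran the other way, with -1.01, -1.63 and -0.88 in LSC GFP+ cells against 1.18, -1.13 and 0.72 in LSC GFP- cells. LSC GFP- replicate 2 lay among the LSC GFP+ values, so the populations overlapped, and the spread of LSC GFP- cells was wide. The means were -1.17 ± 0.40 and 0.26 ± 1.22 (SD, n = 3), a difference of -1.43 (SE 0.56), or 2.69-fold lower signal in LSC GFP+ cells. Without LSC GFP- replicate 2 the difference was -2.12, and without LSC GFP- replicate 1 it was -0.97.

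Aspn, the class I member whose core carries a run of aspartate and, as a rule, no sulfated chain, measured -2.98, -3.82 and -3.51 in LSC GFP+ cells and -3.00, -3.98 and -2.89 in LSC GFP- cells. The populations overlapped over nearly their whole range. The difference was -0.15 (SE 0.35), within the spread between replicates, and it reached 0.054 without LSC GFP- replicate 3.

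Class II was divided too. Fmod, which guides collagen fibril assembly and its cross-linking, measured 0.96, 0.46 and 0.90 in LSC GFP+ cells and 0.088, -0.27 and -0.41 in LSC GFP- cells. The populations did not overlap, and the difference had the same direction within each replicate number, at 0.87, 0.73 and 1.31. The means were 0.77 ± 0.27 and -0.20 ± 0.26 (SD, n = 3), a difference of 0.97 (SE 0.23), or 1.96-fold higher in LSC GFP+ cells.

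Lum, the keratan sulfate proteoglycan best known from the transparent cornea and also abundant in soft connective tissue, measured -2.47, -2.61 and -2.56 in LSC GFP+ cells and -0.57, -2.43 and -0.996 in LSC GFP- cells. All LSC GFP- arrays lay above all LSC GFP+ arrays, although LSC GFP- replicate 2 did so narrowly. With means of -2.55 ± 0.071 and -1.33 ± 0.97 (SD, n = 3), the difference was -1.21 (SE 0.44), or 2.32-fold lower in LSC GFP+ cells. It was -1.76 without LSC GFP- replicate 2 and -0.84 without LSC GFP- replicate 1.

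Kera, the keratan sulfate proteoglycan of the corneal stroma, was printed as 10 spots on each array. The average of its spots was -4.81, -5.32 and -4.19 in LSC GFP+ cells and -2.87, -3.70 and -3.04 in LSC GFP- cells. In LSC GFP- cells all 10 spots were well above background on each array, whereas in LSC GFP+ replicates 1, 2 and 3 only 3, 1 and 5 of the 10 were. A probe counted as above background on an array when more than 50% of its spots were, so Kera had only a bound in LSC GFP+ cells. On the scale of the processed signal, this bound was 2.25-fold lower there than in LSC GFP- cells. It took for each LSC GFP+ array the higher of the probe's own signal and the lowest signal of any probe marked as above background. The bound depends on that floor and on the background correction. The fitted difference of -1.57 (SE 0.34) rests on the dim signals themselves. It became -0.49 under normexp background correction, which is smaller than the bound.

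Prelp, a class II protein that anchors basement membranes to the underlying connective tissue, measured -2.81, -3.29 and -3.74 in LSC GFP+ cells and -4.25, -3.52 and -3.29 in LSC GFP- cells, where replicate 1 was not well above background. The populations overlapped. The difference of 0.40 (SE 0.33) came to 0.061 under normexp background correction. Omd, a keratan sulfate proteoglycan of bone, lay between -6.67 and -4.78, below that mark on all 6 arrays, so no fold was given.

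In class III, Ogn, also called mimecan, measured -3.11, -4.33 and -3.06 in LSC GFP+ cells and -1.67, -4.32 and -2.44 in LSC GFP- cells. It was above background on 2 of the 3 arrays in each population, in both cases all but replicate 2, and was therefore not tested. Within replicate numbers 1, 2 and 3 its signal differed by -1.44, -0.014 and -0.62. Epyc, a cartilage proteoglycan, lay between -6.60 and -5.21 and was below that mark throughout.

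**Figure D2:**
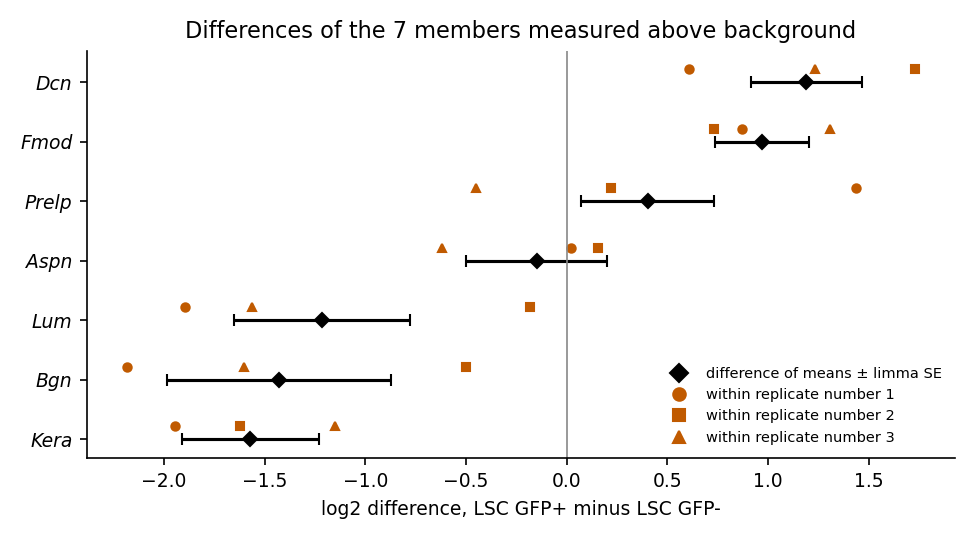
Log2 difference (LSC GFP+ minus LSC GFP-) of the 7 tested member probes, where diamonds with bars give the difference of means ± the standard error from limma and orange shapes give the difference within each replicate number. Dcn (1.19) and Fmod (0.97) lie right of 0 and Lum (-1.21), Bgn (-1.43) and Kera (-1.57) left of it in every replicate number, while Prelp and Aspn change side; the LSC GFP+ signals of Kera were not above background.

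At the unadjusted threshold of 0.05 that the study used, 2 of the 7 tested members were higher in LSC GFP+ cells, Dcn and Fmod, beside 3.38% of all probes, and 3 were lower, Bgn, Lum and Kera, beside 4.53% of all probes. After Benjamini-Hochberg adjustment over all probes in limma no member passed, beside 1 probe in all, or 0.0027%, and the methods' t-test passed none after adjustment either. Without overlap between the populations, 2 members were higher, beside 6.61% of all probes, and 2 were lower, Lum and Kera, beside 5.66%. Since these values chose the family, nothing is read from the counts. Kera was also tested through LSC GFP- cells alone, which favours its call as lower. With probes above background on all 6 arrays, 5 members were tested. Of these 2 were higher, and 2 were lower, Bgn and Lum, with 1 lower without overlap. The median difference over the 7 members was -0.15, beside -0.0044 over all probes tested, and was -0.49 without LSC GFP- replicate 2, while the 5th and 95th percentiles over all probes were -0.71 and 0.51. Dcn and Fmod kept their side of the threshold under every alternative tried, but 1 member alone, Kera, was past it on the lower side with the methods' t-test or when replicate 1 or 3 of LSC GFP- or replicate 2 of LSC GFP+ was left out.

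Members on opposite sides of the comparison included neighbours on a chromosome. Dcn, Lum, Kera and Epyc follow one another on chromosome 10, and in mm9 the probes of Dcn and Lum lie 55.0 kb apart and those of Lum and Kera 41.0 kb. Dcn was higher and both Lum and Kera were lower in LSC GFP+ cells. Outside this cluster, Btg1 differed by 0.29 (adjusted p = 0.930 in limma) on the side of Dcn, and Atp2b1 by 0.18 (adjusted p = 0.996) on the side of Epyc. On chromosome 1 Prelp and Fmod lie 137.1 kb apart, with Btg2 next to Fmod at 0.61 (unadjusted p = 0.0325, adjusted p = 0.542 in limma). On chromosome 13 Aspn, Omd and Ogn lie within a row, 25.4 kb and 31.7 kb apart. Aspn differed by less than its spread, and Omd and Ogn were not tested. These flanking genes were chosen by position.

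Over the 6 arrays, Lum and Bgn ran together and Dcn ran with Fmod. After each probe was centred on its mean, the root mean square distance on the log2 scale was 0.275 between Lum and Bgn and 0.378 between Fmod and Dcn, whereas it was 1.26 between Lum and Dcn and 1.42 between Bgn and Dcn. Aspn lay between, at 0.626 to 0.784 from the other 4 members that were above background on all 6 arrays. Probes were compared with the mean profile of these 5 members, 33840 in all, and those with clone or predicted-gene names were then left out. Among the genes closest to it were St6galnac6 at 0.109, Cnn2 at 0.122, Sulf1 at 0.123 and Fbxo25 at 0.127. That mean profile was shallow, with a root mean square swing of 0.403, because its members opposed one another.

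The genes nearest to single members are given here too, and were named after their values were seen. Clone and predicted-gene names were again left out, so an unnamed transcript may lie nearer. Closest to Dcn were Capn6 at 0.109, Ccdc3 at 0.111, Pid1 at 0.114, Ier3 at 0.121 and Egr2 at 0.140. Closest to Fmod were Homer2 at 0.058, Tsr2 at 0.138, Ydjc at 0.141, Kcnrg at 0.144 and Cdkn2aip at 0.156. Closest to Lum were Clip3 at 0.218, Vim at 0.228, which encodes the mesenchymal filament vimentin, Mest at 0.229, Penk at 0.233 and Thy1, a fibroblast surface protein, at 0.247. Closest to Bgn were Cygb at 0.174, Nid1 at 0.249, a basement membrane linker, Penk at 0.250, Mest at 0.305 and Dner at 0.309. Near Aspn lay Ldah at 0.127, Fry at 0.135, Ttc9 at 0.139, Pabpc1l2b-ps at 0.161 and Mef2c at 0.165. All these distances include the difference between the populations. Vim and Thy1 also belonged to the stromal marker list described next.

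**Figure D3:**
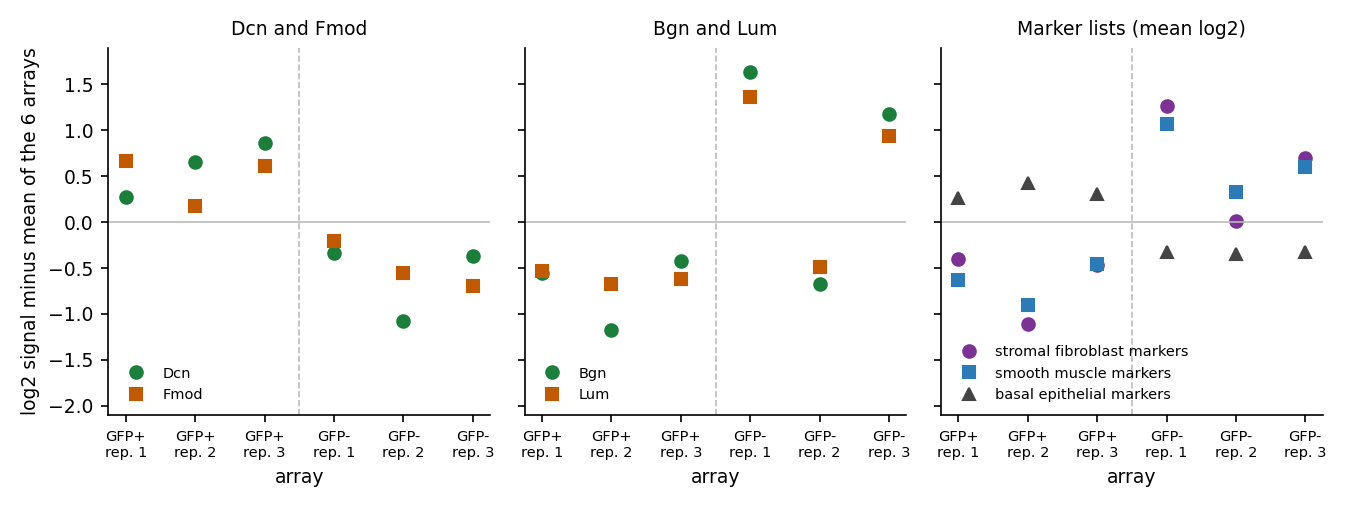
Log2 signal on each array minus the mean of the 6 arrays, for Dcn and Fmod (left), Bgn and Lum (middle) and the mean log2 signal of the stromal, smooth muscle and basal marker lists (right), with a dashed line between the populations. Among the LSC GFP- arrays, replicate 2 is lowest for Bgn (-0.67), Lum (-0.49), Dcn (-1.08) and the mean of each marker list, and replicate 3 for Fmod. Dcn and Fmod lie above 0 on all LSC GFP+ arrays.

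Markers of stromal fibroblasts and of smooth muscle moved with the comparison. Of 20 stromal markers, 17 were tested, and 11 fell and 0 rose in LSC GFP+ cells at the unadjusted threshold, none after adjustment, with a median difference of -1.20 and all 17 below 0. The count was 5 with the methods' t-test and 7 without LSC GFP+ replicate 2, and the median was -1.72 without LSC GFP- replicate 2. With probes above background on all 6 arrays, 11 were tested and 5 fell, with a median of -0.88. The rest were tested through LSC GFP- cells alone, so the filter favoured their place below 0. The summed scaled signal of the 17 was 10.71 to 11.54 on the LSC GFP+ arrays and 13.4 to 23.5 on the LSC GFP- arrays, lowest there on replicate 2. Fap differed by -2.37 (SE 0.69), Pdgfra by -2.36 (SE 0.65), Prrx1 by -2.09 and Gli1 by -2.03 (adjusted p of Pdgfra = 0.304 in limma). On the LSC GFP+ arrays Pdgfra was above background on 2 of 3 and Fap, Prrx1 and Gli1 on 1 of 3, so these sizes rest in part on dim signals. Dpt was above background on 1 of the 6 arrays, Postn on 2 and Col13a1 on 0.

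Of 12 smooth muscle markers 10 were tested, and 9 fell and 0 rose, with a median of -1.60 and sums of 8.84 to 12.3 in LSC GFP+ cells against 23.4 to 43.7 in LSC GFP- cells. Acta2, the smooth muscle actin gene, differed by -2.13 (SE 0.42, adjusted p = 0.140 in limma), Myh11 by -2.01, Actg2 by -1.78 and Mylk by -1.76. The differences of Bgn, Lum and Kera had the sign of these lists' medians, and those of Dcn and Fmod the opposite sign. In the gates that the study took from adult prostate, stromal cells belong to the Sca-1+ CD49f- fraction. Its GFP-bright vascular smooth muscle cells showed very little or no Sca-1 and CD49f. The cells compared here were sorted as Sca-1+ CD49f+. The study reported that its LSC population held only cells positive for CD24, its marker of all epithelial cells. How far the sort of the array samples removed either type was not tested here. The part of stromal and smooth muscle cells in the members' differences was not tested, and in such bulk samples fewer cells of a type and less RNA per cell cannot be told apart. Few markers of the other cell types passed, but glial and neuronal ones differed by as much as -2.63 (Stmn2). Of 7 endothelial markers tested 0 rose and 1 fell (Vwf, -0.82), and 2 fell without replicate 1 of either population. Of 9 leukocyte markers none passed, and 1 did without LSC GFP+ replicate 1. Of 9 glial and neuronal markers none passed. Their differences ran from -2.63 to 0.60, with a median of -0.66 and 8 below 0. Of these 9, 5 fell when the replicate number was a block in limma or when LSC GFP- replicate 2 was left out.

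**Figure D4:**
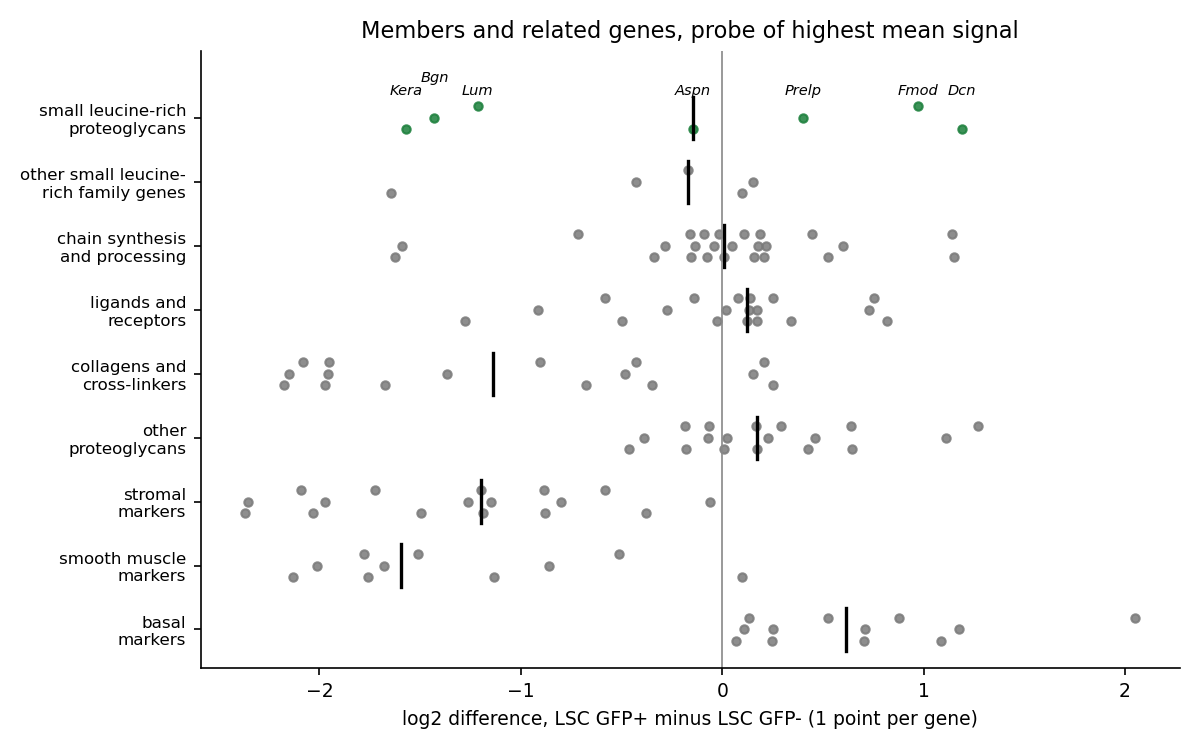
Log2 difference (LSC GFP+ minus LSC GFP-) of each tested gene at its probe of highest mean signal, for the members (green, named) and for 8 lists of related genes or markers (grey), with a black line at the median of each list. The members spread from -1.57 to 1.19, the collagens and the stromal and smooth muscle markers lie mostly left of 0 (medians -1.14, -1.20 and -1.60), and the basal markers lie right of 0.

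The chains of collagens I and III and several others that the small leucine-rich proteoglycans bind were lower in LSC GFP+ cells, opposite in direction to Dcn. Of 20 genes for such collagens and their cross-linking enzymes, 16 were tested, and 9 fell and 0 rose at the unadjusted threshold, with a median difference of -1.14 (-0.46 under normexp correction). With the methods' t-test 7 fell and 1 rose, and with the replicate block 11 fell and 0 rose. With probes above background on all 6 arrays, 13 were tested and 7 fell, with a median of -0.68. Of the 16, 13 were below 0 and 3 above it. Col1a1, a chain of collagen I, measured -0.63, -1.29 and -0.90 in LSC GFP+ cells and 2.01, 0.61 and 1.09 in LSC GFP- cells, without overlap. It differed by -2.18 (SE 0.37, adjusted p = 0.107 in limma), or 4.52-fold. Col1a2, the other chain of collagen I, differed by -2.15 (SE 0.42, adjusted p = 0.139), Col12a1, of a fibril-associated collagen, by -2.08 (SE 0.55, adjusted p = 0.266, above background on 1 of 3 LSC GFP+ arrays, so that its size rests on dim signals) and Col3a1 by -1.97 (SE 0.40, adjusted p = 0.148), all in limma. The summed signal of the list was 28.9 to 70.1 on the LSC GFP- arrays and 14.7 to 18.5 on the LSC GFP+ arrays.

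The other 8 genes of small leucine-rich proteins gave few signals. Of 5 tested, 0 rose and 1 fell, Podnl1, a podocan-like class V protein, by 0.43 on the log2 scale (SE 0.19, adjusted p = 0.630 in limma), a call that was lost under 12 of the alternatives, each array left out among them. Ecm2, which neighbours Aspn, and Podn were not above background on any array. Optc, a class III relative next to Prelp, was above background on 2 of 3 LSC GFP- arrays and on no LSC GFP+ array, and was not tested. Its bound, set by the same floor as for Kera, was 1.41-fold lower there.

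Other proteoglycans, outside the leucine-rich family, showed the direction of Dcn in the genes that passed. Of 21 genes 18 were tested, and 4 rose and 0 fell, with a median of 0.17, and 6 rose and 1 fell with the replicate number as a block in limma. Vcan, which encodes the large chondroitin sulfate proteoglycan versican, measured 5.82, 5.86 and 5.58 in LSC GFP+ cells and 4.70, 4.31 and 4.43 in LSC GFP- cells. It differed by 1.27 (SE 0.20, adjusted p = 0.0993 in limma), or 2.41-fold, and a further Vcan probe differed by 1.32 while another overlapped at 0.44. Gpc3, a cell surface glypican, differed by 1.11 (SE 0.25, adjusted p = 0.196), Gpc6 by 0.64 (SE 0.19, adjusted p = 0.350) and Sdc1, the epithelial syndecan, by 0.64 (SE 0.20, adjusted p = 0.386), all in limma.

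Of 31 genes that build, modify or process the chains and propeptides, 25 were tested, and 4 rose and 2 fell, with a median of 0.011. The 4 that rose act on chondroitin or dermatan sulfate, the chain type of Dcn and Bgn. Csgalnact1, which starts the chondroitin chain, measured -3.60, -2.99 and -3.42 in LSC GFP+ cells and -5.46, -4.09 and -3.91 in LSC GFP- cells, a difference of 1.15 (SE 0.41, adjusted p = 0.480 in limma), with LSC GFP- above background on 2 of 3 arrays. Ust, which sulfates the uronic acids of such chains, measured -0.18, -0.27 and -0.35 against -0.96, -1.84 and -1.41, a difference of 1.14 (SE 0.25, adjusted p = 0.184 in limma). Chsy1, a chain polymerase, differed by 0.60 (SE 0.23, adjusted p = 0.517) and Chst11, a chondroitin sulfotransferase, by 0.52 (SE 0.21, adjusted p = 0.579), and both calls were lost without LSC GFP- replicate 2. The number that rose was 2 with normexp correction, without LSC GFP- replicate 2 or without LSC GFP+ replicate 1, and 1, Ust, without LSC GFP+ replicate 2.

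The 2 that fell were sulfotransferases of the kind that act on keratan sulfate and related sugars, the chain type of Lum, Kera and Fmod. Chst1, the keratan sulfate galactose sulfotransferase, measured -1.07, -2.50 and -1.79 in LSC GFP+ cells and 0.71, -0.89 and -0.31 in LSC GFP- cells. It differed by -1.62 (SE 0.48, adjusted p = 0.340 in limma), and Chst2, which sulfates N-acetylglucosamine, by -1.59 (SE 0.45, adjusted p = 0.311). Both calls were lost with the methods' t-test. Neither direction was shared by the whole step, since Chpf, Chpf2, Chst14 and Dse of the chondroitin and dermatan group and B4galt1 of the keratan group did not pass.

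**Figure D5:**
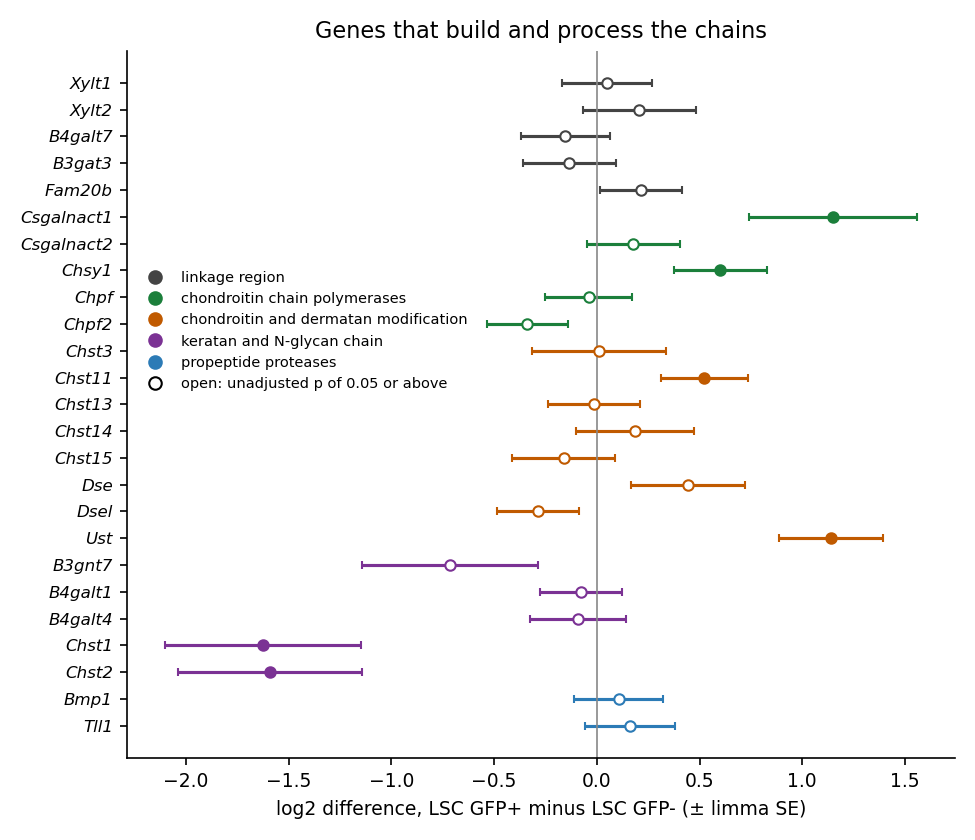
Log2 difference (LSC GFP+ minus LSC GFP-) ± the standard error from limma for the 25 tested genes of chain synthesis and processing, coloured by the step in which they act, with filled points for an unadjusted p under 0.05. The filled points right of 0 are Csgalnact1, Chsy1, Chst11 and Ust, between 0.52 and 1.15, and those left of 0 are Chst1 and Chst2, at -1.62 and -1.59.

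Of 21 ligands and receptors that the proteoglycans bind, 19 were tested, and 2 rose and 3 fell, with a median of 0.12. Egfr, a receptor that decorin can bind and down-regulate, measured 1.97, 2.17 and 1.80 in LSC GFP+ cells and 1.49, 0.92 and 1.27 in LSC GFP- cells, a difference of 0.76 (SE 0.22, adjusted p = 0.344 in limma). Bmp2 differed by 0.73 (SE 0.23, adjusted p = 0.375). Itga1, a collagen-binding integrin subunit, measured -3.69, -4.07 and -4.24 in LSC GFP+ cells against -2.60, -2.81 and -2.77 in LSC GFP- cells, a difference of -1.28 (SE 0.21, adjusted p = 0.107 in limma). Ccn4, a matricellular protein that the array design calls Wisp1, differed by -0.92 (SE 0.36, adjusted p = 0.546) and Tgfb3 by -0.58 (SE 0.23, adjusted p = 0.578 in limma). With quantile normalization, array median scaling, the methods' t-test, or without LSC GFP- replicate 1 or 3 or LSC GFP+ replicate 2, 1 gene fell, Itga1, and with the replicate block Ccn4 did not pass.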

How the data were processed

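The deposited files hold 1-colour Agilent spot intensity values, 1 file per array, from RNA amplified with the Ovation Pico WTA kit and labelled with Cy3. Per the file headers, Feature Extraction 11.0.1.1 made them (the submitters' processing notes list 10.7.3.1), with background subtracted and a spatial trend removed but no normalization between arrays. Probe positions are those of mm9 in the array design, and whether a probe lies in an exon or UTR was not examined. Outlier spots (123 to 154 per array) were left out, the rest were expressed as log2 relative to the array's 75th percentile, and spots of the same probe were averaged. Populations were taken from the sample labels and compared in limma 3.58.1 (R 4.3.3) by lmFit followed by eBayes, two-sided, with Benjamini-Hochberg adjustment over the 37005 probes tested. The fit was tested on simulated data. Tables and figures were made with Python 3.11.15. Symbols came from RefSeq accessions (GRCm38.p6, names only, 26582 probes matched), otherwise from the array design.

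Precision is limited by the number of arrays, as the smallest exact permutation p for 3 against 3 is 0.1. The study's t-test served as an alternative. The members and the 13 gene lists beside them were chosen with earlier results of these data known. Named genes are every member, the sort markers, in each list the genes past the unadjusted threshold, at most the 4 largest in each direction, at the probe of highest mean signal, and the 5 genes nearest the members' mean profile, of which 1 is not reported here. Genes named as chain enzymes that did not pass, flanking genes, Optc, Ecm2, Podn, markers below background and the genes near a single member fall outside that rule. Leukocyte markers count Adgre1 and its older name Emr1 as 1 gene, and Col6a3 had no probe here.

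Deviations from the population means correlated across probes at 0.43, 0.28 and 0.67 for replicates 1, 2 and 3, all above 0.1. Between arrays of different number the correlations ran from -0.55 to 0.22. The highest of these, between GFP+ array 1 and GFP- array 2, also passed 0.1, so that mark alone did not separate the pairs. The replicate numbers of the labels were still taken to pair the samples. The limma fit behind the reported standard errors and p values left this pairing out, and the replicate block included it. Alternatives were normexp correction with an offset of 50, quantile normalization, array median scaling, the deposited value table, 3 other filters on dim probes, a limma trend, the replicate block, the mean over probes of a gene, and each array left out.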

Additional observations from a re-analysis of the deposited data

How the results depend on the processing

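Among the 7 tested members only Aspn changed direction under an alternative, in 2 of 14. The members' differences moved by less than the spread between replicates in 95 cases and by more in 1, Kera under normexp correction. The 95 include the 3 other filters and the replicate block, which could not move a member's difference. Members past the unadjusted threshold on the lower side numbered 3, 1 with the methods' t-test, and 1 to 3 with single arrays left out. Lower members without overlap numbered 2, and 1 with quantile normalization, with array median scaling or with probes above background on all 6 arrays. Over all probes, 1250 were higher and 1675 lower, 1471 and 1299 with array median scaling, 877 to 1378 and 1169 to 2795 with single arrays left out (2795 without LSC GFP+ replicate 1). With the replicate block 2495 were higher and 2985 lower, and the block changed no member's call, gave the call to 14 listed genes and took it from 1. After adjustment 1 probe passed, 3 with quantile normalization or array median scaling, 0 with normexp, all 3 other filters, the methods' t-test, the trend or the block, and 0 to 3 with single arrays left out. Of the genes that act with the family 15 were lower, 9 with the methods' t-test. The cause of these shifts was not tested. Signal over background limits Kera, Ogn, Prelp, Epyc and Omd.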
